A study of Mus musculus with 50 samples.

Results

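SUZ12 and H3K27me3 were compared between *Ezh2* R685C and wild-type (WT) mouse embryonic stem cells (ESCs) by the position, width and strength of their ChIP-seq peaks. The comparison rests on 4 of the 50 samples of the series, 1 list per line and target, chosen by their labels, and these lists hold 47634 peaks in all. WT cells are E14 ESCs. The mutant, labelled Ezh1KOEzh2R685C and called R685C here, carries the arginine-to-cysteine substitution R685C in EZH2. That change was introduced with a single-stranded template into cells from which the *Ezh1* gene had been excised, so the R685C line differs from WT at both genes and the share of each in a difference cannot be told apart. The study made this mutant while asking whether diffuse acetylation of H3K27 contributes to the differentiation defects of PRC2 mutants. Both lines were grown on gelatin in 2i/LIF medium with serum, and the antibodies were the same in both (SUZ12 D39F6, H3K27me3 C36B11). The labels do not say how many clones each line stands for. With 1 library per line and target no difference was tested, and the 95% Wilson confidence intervals (CI) given with shares cover counting error only.

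PRC2 is the complex that methylates lysine 27 of histone H3. EZH1 or EZH2 is its catalytic subunit, SUZ12 and EED are needed for its assembly, and the arginine changed here lies in the catalytic SET domain of EZH2. In ESCs PRC2 is found at CpG-rich promoters of silent developmental genes, where it leaves H3K27me3, a mark that spreads from these sites and is linked to gene silencing. Acetylation of the same lysine (H3K27ac) marks active promoters and enhancers, and a single lysine cannot carry both marks.

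The labelled cell type was checked at the promoters (within 5 kb of an annotated transcription start site, TSS) of marker genes. H3K27ac of the R685C line covered 3594 to 9779 bases at all 6 ESC markers (*Pou5f1*, *Nanog*, *Sox2*, *Klf4*, *Esrrb* and *Zfp42*) and no base at the primitive endoderm genes *Gata4*, *Gata6* and *Sox17* or the trophectoderm genes *Cdx2*, *Gata3* and *Eomes*. The *Ezh1* gene (chr11:101052429-101087777, mm9) held peaks in several libraries of lines labelled as lacking it. Over its 35.3 kb the H3K27me3 list of the R685C line held 12 narrow peaks of 200 to 607 bases with a -log10 p of 13.1 to 61.1, although the gene had been excised. All 12 touched 1 of the 21 merged exons of *Ezh1*. Neither SUZ12 list, the WT H3K27me3 list nor the R685C H3K27ac list held a peak there. The HA list of *Ezh1/2* dKO cells expressing tagged human EZH1 held 16 peaks over the gene, each touching an exon. The H3K27ac list of *Ezh1/2* dKO cells held 5, and so did that of the *Ezh2* Y726D line, which also lacks *Ezh1*, again all on exons. The WT ATAC-seq list held 2 over the gene, both touching an exon, of which one had the largest -log10 p of that list (1395). Whether *Ezh1* cDNA or plasmid sequence is in these libraries was not tested, and the kept and gained shares of H3K27me3 are also given without peaks that touch an exon.

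The sites at issue are shown by 200 bases around the SUZ12 summit, read from the plus strand of mm9 with each CpG in capitals. The first is a strong kept site whose window holds no exon. The next 2 are strong lost sites and the last 2 strong gained sites of that kind. Not every chromosome was used for this choice, so stronger sites of a class can be missing here.
Alx4, kept, chr2:93483247-93483446: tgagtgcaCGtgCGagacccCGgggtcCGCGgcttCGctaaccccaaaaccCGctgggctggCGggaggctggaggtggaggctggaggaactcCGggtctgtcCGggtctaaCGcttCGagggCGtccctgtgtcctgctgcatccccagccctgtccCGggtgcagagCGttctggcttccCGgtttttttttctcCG
Tcfap2a, lost, chr13:40825080-40825279: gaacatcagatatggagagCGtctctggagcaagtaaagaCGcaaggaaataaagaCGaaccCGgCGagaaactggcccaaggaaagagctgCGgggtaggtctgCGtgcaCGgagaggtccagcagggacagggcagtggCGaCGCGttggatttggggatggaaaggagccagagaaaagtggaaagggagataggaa
Fst, lost, chr13:115247525-115247724: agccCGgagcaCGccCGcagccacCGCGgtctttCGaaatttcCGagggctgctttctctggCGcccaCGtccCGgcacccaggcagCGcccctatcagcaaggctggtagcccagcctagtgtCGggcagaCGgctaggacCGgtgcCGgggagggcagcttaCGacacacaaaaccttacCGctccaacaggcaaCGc
Pax3, gained, chr1:78200261-78200460: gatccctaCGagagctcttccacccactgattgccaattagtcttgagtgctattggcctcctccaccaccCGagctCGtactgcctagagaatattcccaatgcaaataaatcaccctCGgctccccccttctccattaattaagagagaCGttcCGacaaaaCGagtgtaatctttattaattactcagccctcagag
Tmem125, gained, chr4:118221093-118221292: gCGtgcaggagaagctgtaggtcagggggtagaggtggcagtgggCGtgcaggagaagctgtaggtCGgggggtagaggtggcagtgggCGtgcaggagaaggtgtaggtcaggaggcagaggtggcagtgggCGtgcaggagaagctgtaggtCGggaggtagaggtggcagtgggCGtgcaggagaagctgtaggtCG
The window in an intron of *Alx4*, a homeobox gene of limb and skull patterning, holds 17 CpGs. The windows in introns of *Tcfap2a*, the gene of a neural crest transcription factor, and of *Fst*, which encodes the activin antagonist follistatin, hold 11 and 18. Upstream of *Pax3*, a neural crest and muscle regulator, the gained window holds 7 CpGs, and upstream of *Tmem125* it holds 8. The *Tmem125* window is a tandem repeat in which 94.9% of bases are the same as the base 44 positions further on, while the best such match in the other 4 windows was 35.2% to 38.4%. At *Alx4* the SUZ12 peak had a -log10 p of 178 in WT and 116 in R685C. At *Tcfap2a* and *Fst* it had 89.1 and 87.6 in WT and no peak in R685C, yet both sites carried H3K27me3 in R685C, with a -log10 p of 21.3 and 90.5. At *Pax3* and *Tmem125* the R685C SUZ12 peaks had 34.8 and 33.5 where WT had none, and both sites carried H3K27me3 in WT too (16.3 and 21.8).

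SUZ12 was listed at fewer sites in R685C than in WT, and the share missing was highest among weak WT sites. The WT list held 5404 SUZ12 peaks over 6.24 Mb and the R685C list 3231 peaks over 4.68 Mb. Of the WT peaks, 2830 were kept, meaning overlapped by at least 1 base in R685C (52.4%, CI 51.0 to 53.7), and 2574 were lost (47.6% of all tested WT peaks). Of the R685C peaks 410 were gained, meaning without a WT peak (12.7%, CI 11.6 to 13.9). By bases, 60.7% of WT SUZ12 sequence lay in R685C peaks, and 80.9% of R685C sequence lay in WT peaks. When the WT peaks were divided into 5 groups of equal size by -log10 p, the kept share went from 21.6% in the weakest group (10.01 to 13.1) through 27.5%, 44.4% and 74.0% to 94.4% in the strongest (52.9 to 201). Sites that were kept had a median -log10 p of 39.8 in WT and 23.8 in R685C, and 707 of them were stronger in R685C. The ranks of the 2 values had a Spearman rho of 0.50 across the 2830 kept sites, which share their libraries and are not replicates. The strength of a peak depends on the depth of its library, which is unknown, and so does the length of a list. With both lists cut to their 3231 strongest peaks, 70.9% were kept and 24.1% gained.

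**Figure D1:**
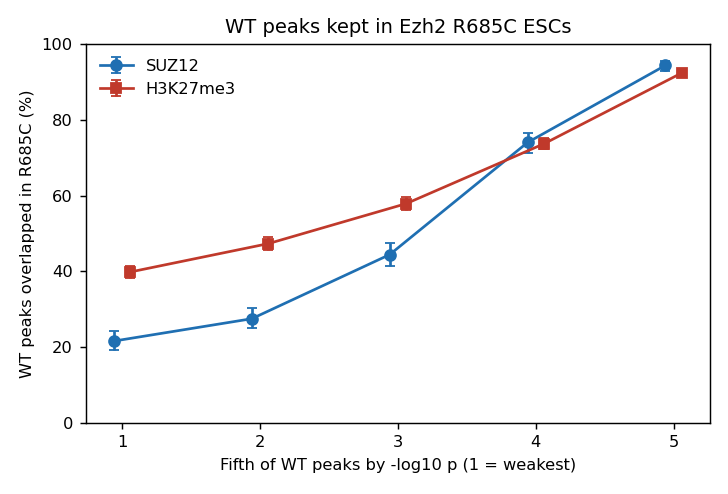
Share of WT SUZ12 and H3K27me3 peaks overlapped by a peak of the same target in R685C ESCs (%, y axis) in 5 groups of equal size of the WT peaks ranked by -log10 p (x axis, 1 is the weakest). Bars are 95% Wilson intervals; the share is 21.6% for SUZ12 and 39.8% for H3K27me3 in the weakest group and 94.4% and 92.4% in the strongest.

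The lost SUZ12 sites were close to the kept ones in CpG content, and those near a TSS had nearest genes with higher RNA levels in WT cells. In 500 bases around the summit the median CpG count was 37 at kept and 36 at lost sites, and the median GC content 64.0% and 63.8%. A TSS lay within 5 kb of 81.6% of kept and 79.2% of lost sites. Gained sites, read at the R685C summit, had a median of 12.5 CpGs, 52.4% GC and 64.1% near a TSS (CI 59.4 to 68.6), against 30 CpGs, 60.8% and 82.0% at the R685C peaks on WT peaks. They were also narrow (median 364 bases, other R685C peaks 1129), and 45.4% of them lay within 1 kb of a WT SUZ12 peak. Only 13.8% of lost sites lay within 1 kb of an R685C SUZ12 peak. RNA levels were read at the nearest genes of sites within 5 kb of a TSS. The median WT RNA-seq level was 0.932 normalized counts per kb of exon for 1407 genes at kept sites. It was 3.77 for 1481 genes at lost sites, against 22.2 over all 15709 matched genes.

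Lists from other lines, which the division into kept and lost did not use, split the same way. HA-EZH1, the tagged human EZH1 expressed in *Ezh1/2* dKO cells, was listed at 76.3% of kept sites (CI 74.7 to 77.9) but at 24.7% of lost sites (CI 23.1 to 26.5) and 6.10% of gained sites. The HA list gives positions only, so it was not cut at a p of at most 1e-10 as the SUZ12 lists were. It holds 4429 peaks, against 1578 of SUZ12 in *Ezh2* KO cells and 3366 in the Y726D line, so shares are not comparable between these lists. SUZ12 of *Ezh2* KO cells, in which EZH1 is the remaining enzyme, was listed at 41.8% of kept, 3.30% of lost and 0.488% of gained sites. SUZ12 of the *Ezh2* Y726D line, made by the study as a catalytically inactive mutant, was listed at 63.1%, 25.9% and 7.07%. The label of this SUZ12 list does not name *Ezh1* KO, unlike that of the Y726D H3K27ac list, though the study made Y726D in *Ezh1* KO cells. H3K27ac of the R685C line itself went the other way, at 2.19% of kept (CI 1.71 to 2.80) and 12.3% of lost sites (CI 11.1 to 13.6). The same order was seen for H3K27ac of *Ezh2* KO cells (1.2% and 6.99%). The WT H3K27ac list was not used here, so acetylation at these sites could not be compared with WT. Lost sites were also weaker in WT, with a median -log10 p of 15.6 against 39.8 at kept sites. They were narrower too, with a median of 554 bases against 1325, and a wide site is more easily overlapped. The part of strength or width in these differences was not tested. The WT ATAC-seq list left 87 regions at a p of at most 1e-10 and touched 5 of the 5404 WT SUZ12 peaks, too few to compare.

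H3K27me3 gave the opposite list lengths, with 16754 peaks over 14.5 Mb in WT and 22245 peaks over 19.8 Mb in R685C. Of the WT peaks 10423 were kept (62.2%, CI 61.5 to 62.9) and 6331 lost (37.8% of all tested). Of the R685C peaks 14234 were gained (64% of all tested, CI 63.4 to 64.6). The 2 libraries differed widely in strength. The largest -log10 p was 72.3 in WT and 754 in R685C, and 93.2% of the 10423 kept sites were stronger in R685C (median 15.2 in WT, 73.1 in R685C, Spearman rho 0.45). The largest -log10 p was 541 in the list of *Ezh2* KO cells. In those cells the study saw a global loss of H3K27me3 by western blot, but by ChIP-seq it still found the mark at sites bound by PRC2. For R685C the study reported by western blot a preferential rescue of H3K27me2 over H3K27me3. The listed strengths depend on library depth, which is unknown, and do not measure the amount of H3K27me3 in a line. The kept share again followed WT strength, from 39.8% in the weakest group to 92.4% in the strongest. Wide regions were kept most, but 1 shared base counts as kept and a wide region meets that more easily. The part of width itself in these shares was not tested. After peaks less than 1 kb apart were merged, all 157 WT domains of at least 10 kb were kept (CI from 97.6%), and so were 98.8% of the 767 of at least 5 kb, but only 32.9% of the 3007 under 500 bases. Lost peaks lay near the mark that remained: 46.8% were within 1 kb and 75.4% within 5 kb of an R685C H3K27me3 peak.

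Most gained H3K27me3 peaks were weak, narrow and far from a TSS. Their median -log10 p was 14.1 and their median width 386 bases, against 41.5 and 1085 for R685C peaks on WT peaks, and 78.5% had a -log10 p under 20. The gained share of R685C peaks was 83.6% at a -log10 p of 10 to 20, 55.1% at 20 to 50, 17.1% at 50 to 100 and 5.62% at 100 to 200. Of the 1131 peaks above 200, 12 were gained (1.06%). A TSS lay within 5 kb of 31.7% of gained peaks, 65.0% of R685C peaks on WT peaks, 66.9% of kept and 48.6% of lost sites. A WT H3K27me3 peak lay within 5 kb of 34.2% of gained peaks, and WT SUZ12 within the same distance of 15.1%. The R685C line had SUZ12 at 1.14% of them, while it had SUZ12 at 30.7% of its H3K27me3 peaks on WT peaks.

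R685C H3K27me3 peaks, gained or not, lay on exons more often than lost WT peaks. Among peaks inside genes and over 5 kb from any TSS, the summit was in an exon of a protein-coding gene for 1819 of 5120 gained (35.5%, CI 34.2 to 36.8), and for 37.8% of the R685C peaks on WT peaks (CI 35.2 to 40.5). By the WT summit it was 28.7% of kept (CI 26.5 to 31.0) and 9.4% of lost peaks (CI 7.82 to 11.3). This share was 52.8% for gained peaks with a -log10 p of at least 50, and 20.2% over all such peaks of the *Ezh2* KO list. The median GC content was 56.2% at gained peaks, with 12 CpGs in 500 bases, and 58.2% at R685C peaks on WT peaks, with 19 CpGs. By the WT summit it was 54.4% at kept and 48.2% at lost sites. The part of exons or GC content in these differences was not tested. Without any peak that touches an exon in either list, 72.1% of R685C peaks were gained and 34.1% of WT peaks kept. Because both lists were filtered, a WT peak off exons counts as lost where its only R685C partner touched an exon. In the same way an R685C peak can count as gained. These shares therefore mix the filter with any exon signal and do not show what exon peaks contribute.

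**Figure D2:**
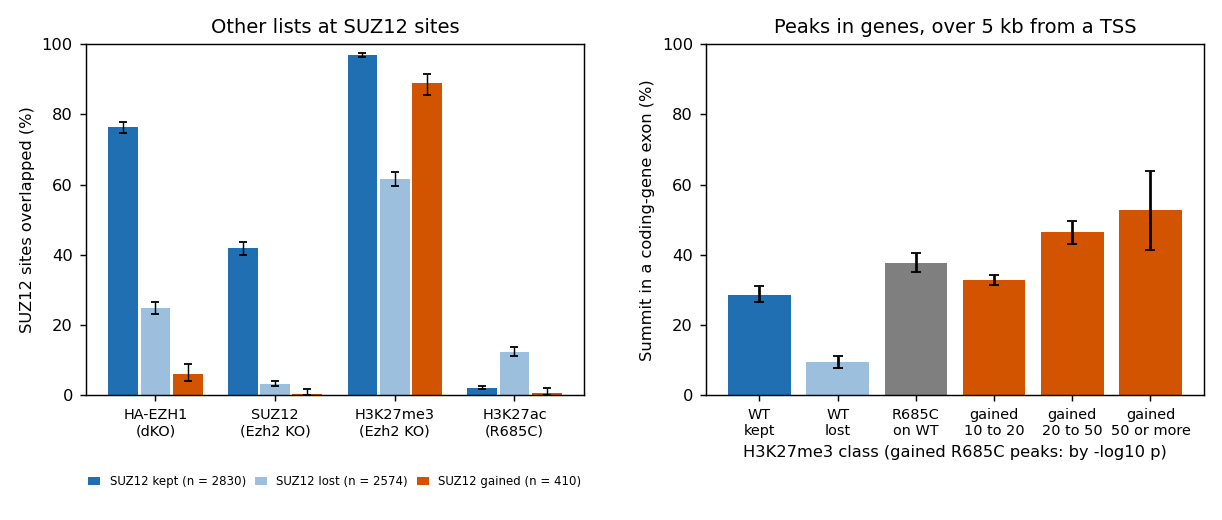
Left, share of kept, lost and gained SUZ12 sites (%) overlapped by peaks of HA-EZH1 in *Ezh1/2* dKO cells, SUZ12 and H3K27me3 in *Ezh2* KO cells and H3K27ac in R685C cells; right, share (%) of H3K27me3 peaks inside genes and over 5 kb from a TSS whose summit lies in an exon of a protein-coding gene, for kept and lost WT peaks, R685C peaks on WT peaks and gained R685C peaks divided by -log10 p. Bars are shares with 95% Wilson intervals; HA-EZH1 is at 76.3% of kept and 24.7% of lost SUZ12 sites, and the exon share is 9.4% for lost, 37.8% for R685C peaks on WT peaks and 52.8% for the strongest gained H3K27me3 peaks.

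H3K27me3 was still listed at most sites from which SUZ12 was lost. Of the 5404 WT SUZ12 peaks, 4287 overlapped H3K27me3 in WT (79.3%, CI 78.2 to 80.4) and 4826 in R685C (89.3%, CI 88.5 to 90.1). Both lines had it at 4110 sites, R685C alone at 716, WT alone at 177 and neither at 401. SUZ12 was kept at 64.7% of the 4110 sites marked in both lines (CI 63.2 to 66.2), at 19.7% of those marked in R685C alone and at 2.24% of those marked in neither. Of the 2574 lost SUZ12 sites, 2025 had an R685C H3K27me3 peak (78.7%, CI 77.0 to 80.2), while 62.4% had one in WT. At kept SUZ12 sites the shares were 99.0% in R685C and 94.7% in WT. Seen from the mark, 95.2% of WT H3K27me3 peaks on a WT SUZ12 peak were kept. Of those within 1 kb of one 55.4% were kept, of those at 1 to 5 kb 40.9%, of those at 5 to 50 kb 50.9%, and of those over 50 kb away 43.8%. At a stricter p of at most 1e-20 for all lists, 51.3% of WT SUZ12 peaks had H3K27me3 in WT and 92.3% in R685C.

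H3K27me3 peaks of R685C cells covered more of the SUZ12 sites than those of WT, and about as much of the sequence beside them. Within WT SUZ12 peaks 73.3% of bases lay in H3K27me3 peaks in WT and 88.7% in R685C, and in the 1.2 kb on either side 46.2% and 45.8%. The ratio of outside to inside was thus 0.631 in WT and 0.517 in R685C. At lost SUZ12 sites it was 0.693 in WT and 0.479 in R685C, and at kept sites 0.694 and 0.597. By distance, R685C coverage exceeded that of WT in the first 500 bases (55.0% against 46.5%), was below it at 1000 to 1500 bases (32.5% against 39.6%) and close to it at 5000 to 5500 bases (13.4% against 12.8%). At a p of at most 1e-20 the ratios were 0.514 in WT and 0.510 in R685C, so the gap between lines was nearly closed at that threshold, and around R685C SUZ12 peaks they were 0.642 and 0.619. At the 4110 sites marked in both lines the widest single H3K27me3 peak had a median of 1496 bases in WT and 2136 in R685C. The median merged domain was 3805 bases in WT and 3305 in R685C. In the R685C list 2224 H3K27me3 peaks spanned 2 or more WT peaks, and 837 WT peaks spanned 2 or more R685C peaks.

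**Figure D3:**
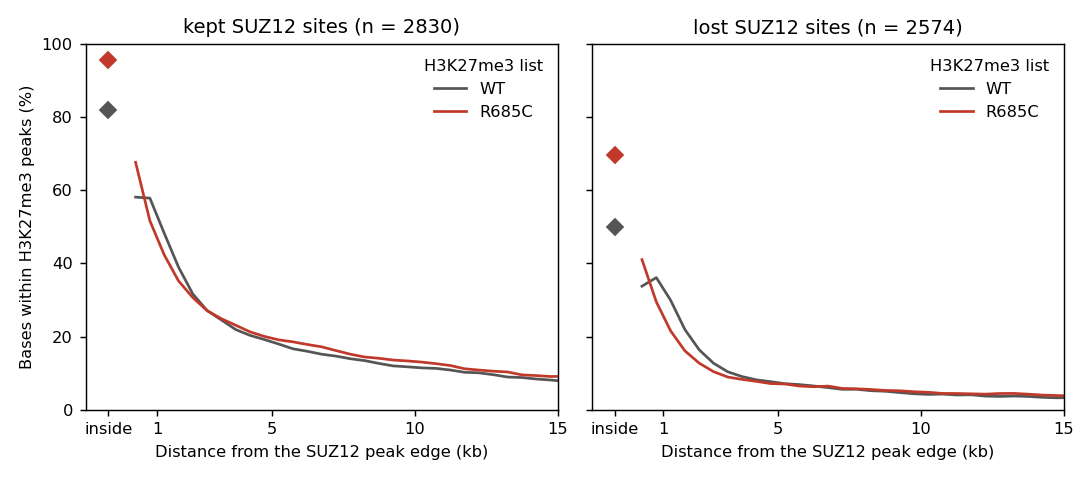
Share of bases within H3K27me3 peaks (%, y axis) inside WT SUZ12 peaks (diamonds) and in 500-base steps from their edges (lines, x axis in kb), for WT and R685C lists, at the 2830 kept (left) and 2574 lost (right) SUZ12 sites. In both panels R685C lies above WT inside the peak and in the first step and below it from 0.5 to 2 kb.

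The Hox clusters, which encode the homeobox factors that set position along the body axis, differed among themselves. In Hoxa, SUZ12 covered 59.8 kb in WT and 78.3 kb in R685C, in Hoxb 49.1 and 74.5 kb and in Hoxd 46.3 and 60.4 kb. The number of SUZ12 peaks was lower in R685C in each of them (30 and 23 in Hoxa, 34 and 20 in Hoxb, 29 and 21 in Hoxd). After merging within 1 kb, the widest SUZ12 domain of Hoxb was 8.35 kb in WT and 70.2 kb in R685C, the latter running from *Hoxb8* to *Hoxb3* and the widest SUZ12 domain of the R685C list. In Hoxa the widest was 12.1 kb in WT and 54.7 kb in R685C. Hoxc went the other way: SUZ12 covered 48.2 kb in WT and 32.1 kb in R685C, H3K27me3 85.2 and 41.7 kb. The H3K27me3 of the other clusters differed less between lines, at 88.0 and 81.2 kb in Hoxa, 81.4 and 90.2 kb in Hoxb and 72.1 and 66.1 kb in Hoxd. In Hoxc, H3K27ac of the R685C line covered 9.78 kb, and in Hoxa, Hoxb and Hoxd 0.569, 2.90 and 0 kb. *Hoxc12* had 6446 bases of SUZ12 in WT and 240 in R685C, 5450 and 0 of H3K27me3, and 6241 of R685C H3K27ac. H3K27ac of *Ezh2* KO cells covered 1898 bases at *Hoxc12*. In *Ezh2* KO cells H3K27me3 covered 13.6 kb of Hoxc, and 80.4 to 98.8 kb of the other clusters.

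**Figure D4:**
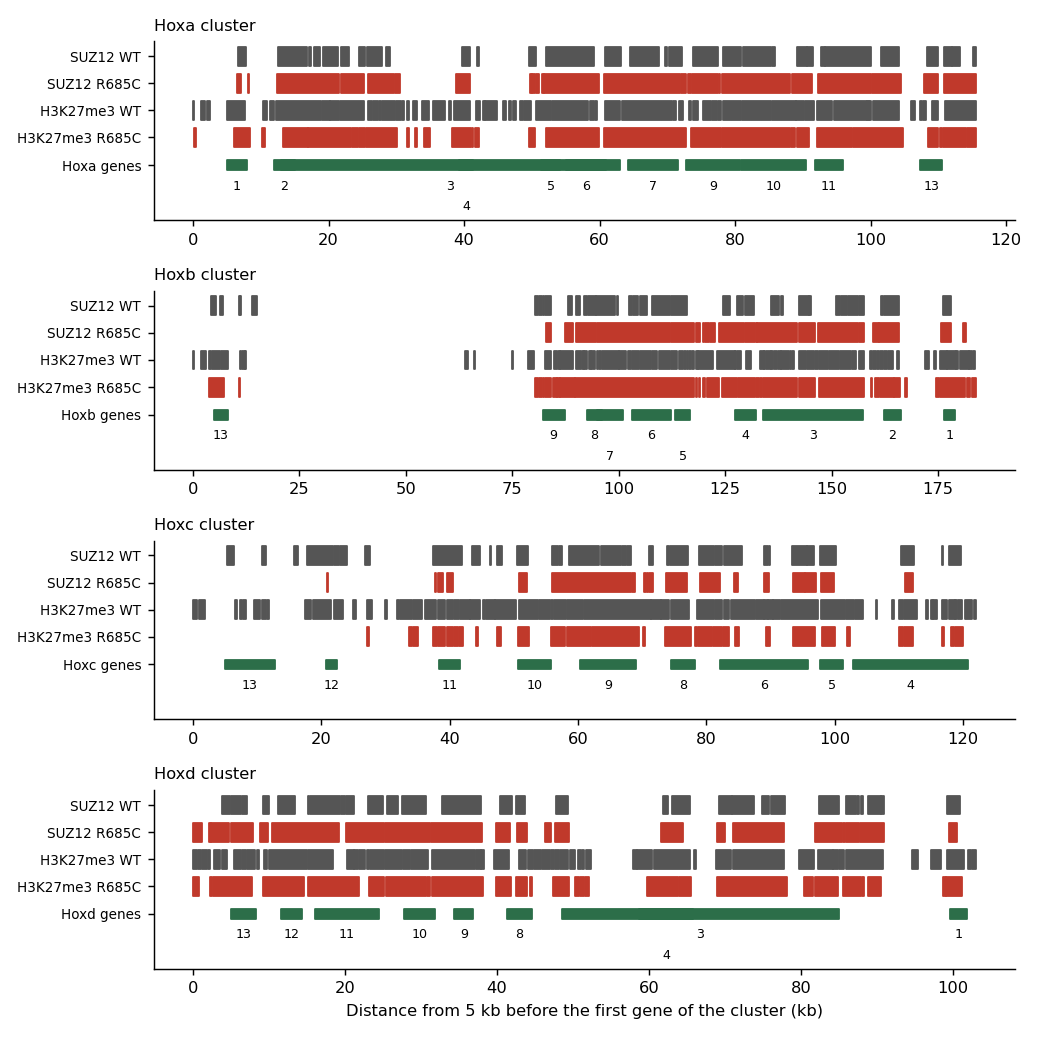
Peaks of SUZ12 and H3K27me3 in WT (grey) and R685C (red) ESCs over the 4 Hox clusters, with the genes in green (numbers are the gene's number in its cluster), by distance in kb from 5 kb before the first gene. SUZ12 peaks join into long blocks in R685C in Hoxa, Hoxb and Hoxd, while in Hoxc both targets cover less in R685C, most so around *Hoxc12* and *Hoxc13*.

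At the level of genes, SUZ12 was missing from many promoters and H3K27me3 from few, a contrast that narrowed with lists of equal length. Promoters kept were 56.5% for SUZ12 and 91.7% for H3K27me3 with the full lists, and 74.0% and 89.0% at equal length. Of 22219 protein-coding genes, 3162 had WT SUZ12 in the 5 kb around a start site (14.2%) and 1845 had R685C SUZ12 there (8.3%). Of the 3162, 1377 had none in R685C (43.5%). Of the 19057 without one in WT, 60 had one in R685C (0.315%). H3K27me3 was found at 18.4% of all promoters in WT and 24% in R685C. No R685C peak was listed at 340 of the 4099 WT-marked promoters (8.29%), and 1572 of 18120 unmarked ones had one (8.68%). Among the 2882 promoters with both SUZ12 and H3K27me3 in WT, 1743 kept both (60.5%), 1023 kept H3K27me3 and lost SUZ12 (35.5%), 110 lost both (3.82%) and 6 kept SUZ12 and lost H3K27me3 (0.208%). An R685C H3K27ac peak was near 45.2% of all promoters. It was near 33.5% of promoters that lost SUZ12 (CI 31.0 to 36.0) and 11.3% of those that kept it (CI 9.93 to 12.9). It was near 54.4% of promoters that lost H3K27me3 (CI 49.1 to 59.6), 16.8% that kept it and 53.3% of those marked in neither line. In WT RNA-seq, the median level was 17.0 normalized counts per kb for genes that lost H3K27me3, 1.74 for those that kept it, 3.99 for those that gained it and 48.0 for those never marked.

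Covered bases were then compared per promoter, counting a gene as 2-fold lower or higher in R685C where WT had at least 500 bases. Over all 2685 such SUZ12 promoters 46.6% were 2-fold lower and 0.708% higher. Over all 3472 such H3K27me3 promoters 12.5% were lower and 10.2% higher. Over all promoters with any WT peak (3162 for SUZ12, 4099 for H3K27me3), the median ratio of R685C to WT was 0.39 for SUZ12 and 1.03 for H3K27me3. The 15 PcG loci that the study used as examples kept both targets at every promoter. Their median ratio was 1.16 for SUZ12 and 1.02 for H3K27me3, and none was 2-fold lower for SUZ12. At *Pax9*, a tooth and thymus regulator, SUZ12 covered 10002 bases in WT and 12443 in R685C. At *Wnt5a*, a signaling ligand, the values were 7740 and 8948. The loci with the largest and smallest H3K27me3 ratios were *Mmp25*, a matrix protease gene (580 bases in WT, 2111 in R685C), and *Olig3*, a neural bHLH factor (5392 and 2385). *Cdx2*, the trophectoderm regulator, came next with 8171 and 5685, while *Hoxb7* had 8247 and 10001. The listed -log10 p differed much more than width, at 33.2 in WT and 754 in R685C for H3K27me3 at *Lhx5*, a LIM homeobox factor. It depends on library depth, which is unknown, and does not give the amount of the mark.

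Few genes of the developmental transcription factor families lost SUZ12, beside 43.5% over all promoters with WT SUZ12. Their WT SUZ12 was also wider, with family medians of 3175 to 6426 bases against 1231 over all such promoters. The kept share rose with WT strength, and these families were not compared with promoters of equal WT strength or width. Of 39 Hox genes 37 kept SUZ12 (*Hoxb13* and *Hoxc13* lost it), 7 were 2-fold lower and 1 higher, and the median ratio was 1.21. For H3K27me3, 37 of 39 kept it and 5 were 2-fold lower. *Hoxb4* and *Hoxb3* had the largest ratios (6303 to 9141 and 16609 to 22111 bases), and *Hoxc12* and *Hoxc13* had no R685C H3K27me3 peak. Of 44 other homeobox factors 42 kept SUZ12 and 42 of 43 kept H3K27me3. *Meis2*, a cofactor of Hox proteins, lost both over 6701 and 5220 bases, and R685C H3K27ac covered 10396 bases there. H3K27ac at the genes named here and below was not compared with WT. *Otx2*, a regulator of the epiblast and forebrain, had 6694 bases of H3K27me3 in WT and 1248 in R685C, with 2979 of H3K27ac. In *Ezh2* KO cells H3K27ac covered 6801 bases at *Meis2* and 3393 at *Otx2*, so its presence there was not particular to R685C. *Meis1* went the other way with 1856 and 5562, and *Otx1* had 6838 and 9295. *Gbx2*, a hindbrain boundary factor, had 6130 bases of SUZ12 in WT and none in R685C, but kept 4266 of its 5426 bases of H3K27me3.

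All 19 GATA, Sox and T-box factors matched (*Sox1* was not matched) kept both targets. *Gata6* had 6662 bases of H3K27me3 in WT and 8499 in R685C and *Tbx2* 7596 and 9298, while *Tbx18* had 3943 and 1541 and *Eomes* 5783 and 2659. Of 13 Forkhead factors 12 kept SUZ12 and all 13 H3K27me3. *Foxd3*, a factor of ESCs and neural crest, had 5317 bases of SUZ12 in WT and none in R685C, with H3K27me3 at 4399 and 911 bases. H3K27ac covered 3740 bases there in R685C and 1463 in *Ezh2* KO cells. *Foxq1* was next lowest (5726 and 4389), and *Foxc1* (6611 and 9543) and *Foxc2* (6221 and 7697) were highest. All 17 tissue-specific bHLH factors with SUZ12 in WT kept it, and their H3K27me3 ratios included those of *Hand2*, a heart and limb factor (4642 and 5650), at the high end and of *Ascl2*, a trophoblast factor (6258 and 4806), and *Olig3* at the low end. Among 25 genes of Wnt, Hedgehog, BMP and FGF signaling, 21 of 23 kept SUZ12 and 20 of 20 kept H3K27me3, with *Wnt2* (1427 and 3080), *Bmp7* (5348 and 8617), *Fgf3* (5198 and 3195) and *Wnt5a* (11873 and 9451) at the ends. *Gli3*, a Hedgehog effector, lost 664 bases of SUZ12 and *Bmp4*, a BMP ligand, 1616, and R685C H3K27ac covered 363 and 6016 bases there. In *Ezh2* KO cells H3K27ac covered no base at *Gli3* and 1384 at *Bmp4*.

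Other lists had few targets. Of the cyclin-dependent kinase inhibitors, *Cdkn1c* had more of both targets in R685C (H3K27me3 7979 and 8524 bases), whereas *Cdkn2a* (1278 and 389) and *Cdkn2c* (2457 and 211) lost SUZ12 and most H3K27me3, and *Cdkn2b* lost its 281 bases of H3K27me3. Among 11 genes of PRC2 subunits only *Phf19*, an accessory subunit, was a target, with SUZ12 over 1965 and 1108 bases and H3K27me3 over 3645 and 3126. Among 11 pluripotency factors (*Tfcp2l1* was not matched), *Esrrb* had both targets near a TSS in both lines (SUZ12 2308 and 2596, H3K27me3 6918 and 5057) beside 9779 bases of H3K27ac. *Tbx3* lost SUZ12 (1091 bases) and H3K27me3 (1926 bases), with 16740 bases of H3K27ac in R685C and 10735 in *Ezh2* KO cells. Its WT RNA level was already 336 normalized counts per kb. *Prdm14* lost its 518 bases of SUZ12. No ribosomal protein gene of 15 had SUZ12 or H3K27me3 in either line, and all 15 had H3K27ac.

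**Figure D5:**
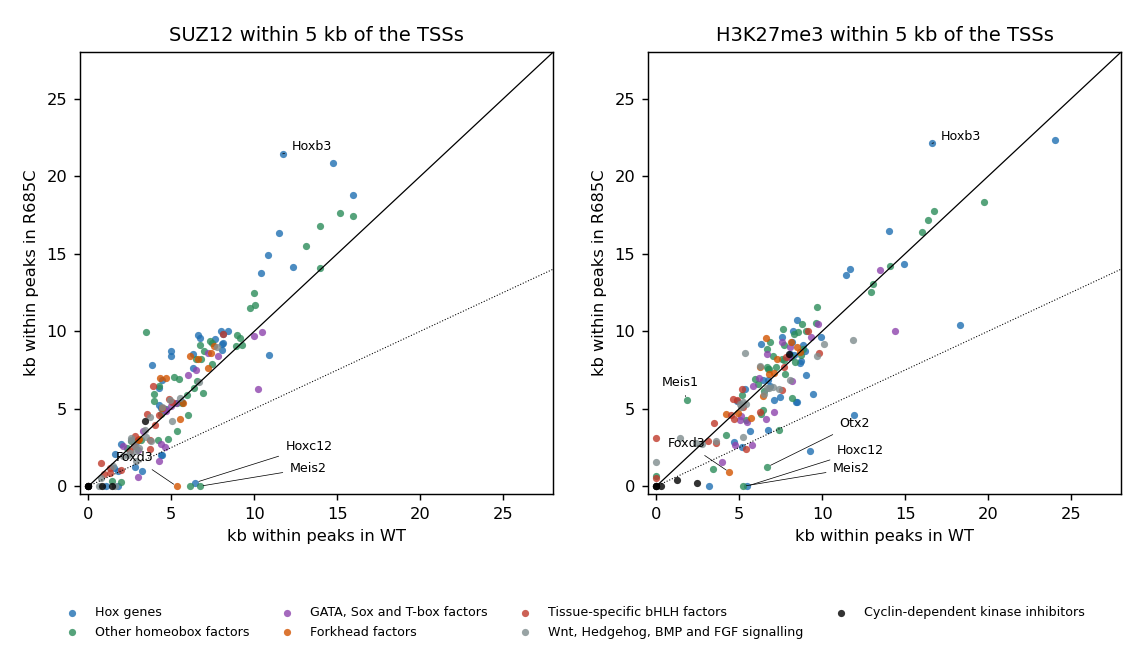
Length within SUZ12 (left) and H3K27me3 (right) peaks within 5 kb of the TSSs of each listed gene, in kb, in WT (x axis) and R685C (y axis), colored by gene list. The solid line marks equal length and the dotted line 2-fold less in R685C; most Hox genes lie on or above the solid line for SUZ12, and *Meis2*, *Foxd3* and *Hoxc12* lie at or near 0 in R685C.

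The strongest single sites near a TSS were named in each class. The lost SUZ12 sites of largest WT -log10 p were at *Smad6*, an inhibitor of BMP signaling (chr9:63867505-63869976, exonic summit, 118.9), *Spry4*, an inhibitor of growth factor signaling (chr18:38759013-38761250, intronic, 106), *Fosl2*, an AP-1 subunit (chr5:32437566-32439617, 103), *Hmga2*, a chromatin architectural factor (chr10:119912045-119915531, exonic, 99.8), and *Nt5e*, a nucleotidase (chr9:88222129-88223353, exonic, 99.5). The nearest R685C SUZ12 peak lay 262358 to 996149 bases away from these 5. R685C H3K27ac overlapped 4 of them, all but *Nt5e*. H3K27me3 overlapped all 5 in WT and 4 in R685C, with *Hmga2* the exception.

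The gained SUZ12 sites of largest R685C -log10 p were at *Zic4*, a neural zinc finger factor (chr9:91280544-91282851, 42.6), *Tmem125* (chr4:118221000-118221401, 33.5), *Tcfap2c*, the gene of AP-2 gamma (chr2:172370896-172372484, 29.3), *Gm20481* (chr17:35106598-35107106, 28.7) and *Pcdha11*, a clustered protocadherin of neurons (chr18:37170832-37171923, 27.6). None carried R685C H3K27ac, all 5 carried H3K27me3 in R685C, and all but *Zic4* carried it in WT. These values are well below those of the strongest lost sites.

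The lost H3K27me3 peaks of largest WT -log10 p were in introns of *Hoxc6* (30.1) and *Tmcc3* (28.6), near *Inhba*, an activin subunit (26.5), in *Gm9979* (26.5) and near *Zfp9* (26.5). All but *Tmcc3* lay within 309 to 1238 bases of an R685C H3K27me3 peak. The gained H3K27me3 peaks of largest R685C -log10 p were in an intron of *Grb10*, an imprinted growth inhibitor (chr11:11937639-11938502, 291), near *Tmem125* (245), in exons of *Pcdha11* (237) and *Slc25a4*, the mitochondrial ADP/ATP carrier (223), and in an exon of *Zar1*, an oocyte factor (221). SUZ12 was listed at all 5 in R685C, and in WT at *Grb10* and *Zar1*. The *Grb10* peak lay 20 bases from a WT H3K27me3 peak, and *Zar1* was 67417 bases from the nearest. All 5 also carried H3K27me3 in *Ezh2* KO cells.

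Because *Pcdha11* was named in both gained classes, the clustered protocadherin genes on chr18 (chr18:37084939-38006527, 24 genes matched) were looked at as a whole, after their values were seen. SUZ12 peaks numbered 15 in WT and 38 in R685C and covered 9.05 and 28.7 kb. H3K27me3 covered 52.4 and 96.9 kb, and 58.0 kb in *Ezh2* KO cells, while R685C H3K27ac covered 21.2 kb. By chromosome, X stood apart for H3K27me3, with 87 peaks in WT and 394 in R685C. That ratio of 4.53 compares with 1.04 to 1.81 over the autosomes. Of the WT peaks on X 78.2% were kept, and 85.3% of the R685C peaks there were gained, against 57.8% to 74.8% on autosomes. SUZ12 on X was kept at 45.8% of sites, within the autosomal range of 43.9% to 62.4%. The *Ezh2* KO list, with 8956 H3K27me3 peaks in all against 16754 in WT, held 294 on X. The higher count on X than in WT was thus not particular to R685C. WT had no H3K27me3 peak on Y and R685C had 3.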

How the data were processed

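The 4 ChIP-seq peak lists of mouse ESCs were compared, and other lists of the series were used only as further readouts. The authors aligned reads to mm9 with Bowtie, keeping unique alignments. Picard took out duplicates, and MACS2 called the peaks at a p of at most 1e-10 per the Reporting Summary (the methods give another cut-off). The deposited -log10 p is each peak's strength against its own library's background, and it was taken as listed. The Drosophila spike-in does not enter the lists, and the reads behind each list are unknown. The deposited RNA-seq table holds a signal per gene, counts divided by size factors by the authors, and the mean of the 2 WT libraries per kb of exon was used (15709 of 18055 genes matched by symbol).

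The autosomes and sex chromosomes were used. Scripts ran under Python 3.11.15 and used numpy 2.4.6, pandas 2.3.3, scipy 1.17.1 and statsmodels 0.14.6; figures used matplotlib 3.10.9. An overlap needed 1 base. TSSs, exons and sequence came from GENCODE and the NCBIM37 genome, the build of the files. Shares have Wilson 95% CIs. The overlap code was tested on simulated lists. The named genes are the 15 PcG loci of the study, the 5 strongest lost and gained sites of each target within 5 kb of a TSS, and up to 2 members with the largest and the smallest H3K27me3 ratio of each list; a few more, and the protocadherins, were added with their values in view. A member that the rule names is not reported here. The members and gene lists were chosen with earlier results of these data known. Alternatives were a p of at most 1e-20, lists of equal length, autosomes only, 50% overlap, merging within 1 kb, 4 kb windows and 2 kb around the TSS, and, added after seeing the data, other sites and the removal of exon peaks or of peaks shared with Y726D cells. WT H3K27ac and the H3K27me1, H3K27me2, RING1B and H2AK119ub samples were not used here.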

Additional observations from a re-analysis of the deposited data

How the results depend on the processing

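Of the recomputed values 20 stayed within their interval or within 5% (widths and ratios), 40 moved and 2 reversed. The medians of peak width reversed with lists of equal length: R685C over WT was 1.13 for SUZ12 (0.769 at equal length) and 0.869 for H3K27me3 (1.14 at equal length), so the direction of the width difference depends on list length. At a p of at most 1e-20 they were 1.451 and 0.659, and H3K27me3 with merging 0.694. The SUZ12 share kept was 46.5% at 1e-20, 70.9% at equal length, 44.7% at 50% overlap and 54.5% with merging, and the share gained 5.08%, 24.1%, 18.8% and 7.32%. For H3K27me3 the share kept was 89.8%, 59.3%, 51.9% and 64.3%, and 34.1% without exon peaks; the share gained was 76.3%, 56.3% and 72.6%, 72.1% without exon peaks and 63.3% without peaks shared with Y726D cells. H3K27me3 at WT SUZ12 peaks was 51.3%, 91.1%, 69.8% and 82.3% in WT (80.4% on autosomes) and 92.3%, 94.99%, 86.3% and 90.6% in R685C, higher in R685C in each setting. The ratio of outside to inside was 0.414 in WT and 0.323 in R685C with 4 kb windows, 0.664 and 0.554 at sites marked in both lines, 0.619 in R685C around its own SUZ12 peaks, and 0.514 in WT at 1e-20, where R685C had 0.510. Promoters kept were 48.4% and 74.0% for SUZ12 and 97.3% and 89.0% for H3K27me3, at 1e-20 and at equal length. Removing exon peaks from both lists also removes partners of peaks off exons, which by itself lowers the kept share and raises the gained share. The cause of the shifts was otherwise not tested.

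No paired analysis was possible because each line and target has 1 library and the results come from no test. Leaving out a library was not possible for the same reason. Depth is unknown, so a site missing from a list was not shown to lack SUZ12 or H3K27me3. The largest -log10 p of H3K27me3 was 754 in R685C and 72.3 in WT, and whether weak sites were listed equally well in both was not tested.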
